A study of Mus musculus with 2 samples.

Results

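The 6 genes described here are Sncb and Sncg, which encode beta- and gamma-synuclein, and Lrrk2, Pink1, Park7 and Vps35, whose human counterparts carry inherited variants in families with parkinsonism. They were chosen by name, and they are 6 of 55536 genes in the gene tables. The samples are total RNA of the left cortex from 2 males aged 36 days, both B6CASTF1/J, an F1 hybrid strain, with 300 ng of RNA and an ERCC spike-in mix of known RNAs in each library. The animals carry no stated treatment or edited allele, and both form 1 group, so there is no contrast between conditions and no test of one. The labels number the animals as separate biological replicates but give both the same donor identifier, so whether the spread between them is that of unrelated animals is not known.

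Synucleins are small proteins of nerve terminals that bind the membrane of synaptic vesicles. LRRK2 is a large kinase that phosphorylates Rab GTPases on intracellular membranes, and VPS35 is the core of retromer, the complex that carries membrane proteins from endosomes back to the Golgi or the cell surface. PINK1 is a kinase that builds up on damaged mitochondria and starts their removal by mitophagy, and DJ-1, the product of Park7, protects cells from oxidative stress.

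The total count was 29915463 in replicate 1 and 27988085 in replicate 2. Spike-ins took 0.407% and 0.322% of it. The tissue label was checked against cell type markers. All 6 excitatory neuron markers and all 6 inhibitory neuron markers had at least 1 TPM in both mice, a level scaled to transcript length and to the library's total RNA, with list medians of 317 ± 12.3 and 47.7 ± 2.53 TPM (SD, n = 2). All 5 astrocyte, 5 oligodendrocyte, 5 microglia, 5 endothelial and 3 erythroid markers were also present, with medians of 52.9 ± 4.72, 81.8 ± 11.6, 13.3 ± 1.68, 7.49 ± 0.0707 and 186 ± 0.156 TPM. None of the 4 cerebellar granule or Purkinje cell markers and 2 of the 4 choroid plexus markers reached that level, with medians of 0.055 ± 0.0636 and 0.983 ± 0.0106 TPM.

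All 6 genes reached 1 TPM in each mouse, as did 58.6% of the protein-coding genes (12902 of 22028).

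The pair of synucleins lay at opposite ends. Sncb (ENSMUSG00000034891.13, mm10 chromosome 13, 54758860 to 54766595, minus strand) encodes a synuclein of presynaptic terminals. It had 376 TPM in replicate 1 and 389 in replicate 2, from 7851 and 7543 expected counts, or 383 ± 9.38 TPM (SD, n = 2). It ranked 101 of 21991 protein-coding symbols.

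Sncg (ENSMUSG00000023064.4, chromosome 14, 34370274 to 34374789, minus strand) encodes the synuclein best known from peripheral and motor neurons. It had 1.48 and 2.17 TPM, or 1.82 ± 0.488, and ranked 12255. These levels rest on 22 counts (exact Poisson 95% interval 13.8 to 33.3) and 30 counts (20.2 to 42.8), an interval that covers counting error only. In each mouse the Sncb level was far above that of Sncg, by 254-fold and 179-fold in TPM, and the difference in log2(TPM + 1) was 7.10 ± 0.22. In bulk tissue, fewer cells that hold a transcript and less of it in each cell cannot be told apart.

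The coding sequences of the synucleins can be set side by side to see how easily their reads could be mistaken for each other. The first coding exon is the most alike. Capitals mark the bases that the genes share in this alignment, read 5′ to 3′ from GENCODE M21 on GRCm38, at chr13:54765563-54765683 for Sncb and chr14:34374460-34374580 for Sncg, both on the minus strand.
Sncb: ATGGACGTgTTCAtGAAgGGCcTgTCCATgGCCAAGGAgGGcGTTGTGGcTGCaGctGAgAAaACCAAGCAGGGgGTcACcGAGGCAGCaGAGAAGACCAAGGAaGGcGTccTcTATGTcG
Sncg: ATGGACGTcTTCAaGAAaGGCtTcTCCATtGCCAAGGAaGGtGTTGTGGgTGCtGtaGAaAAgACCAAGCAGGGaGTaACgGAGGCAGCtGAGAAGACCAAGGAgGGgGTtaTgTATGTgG
Of the 121 bases, 97 were identical (80.2%), against 128 of 207 aligned bases (61.8%) after the second coding exon and 256 of 367 (69.8%) over the whole coding sequences of 402 and 372 bases. The longest run of identical bases between their leading transcripts was 16, and the deposited standard deviation of the expected count was 0 for both genes.

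The 4 parkinsonism genes lay between the synucleins. Lrrk2 (ENSMUSG00000036273.15, chromosome 15, 91673175 to 91816120, plus strand) encodes the Rab kinase. It had 24.1 and 19.3 TPM from 3101 and 2487 counts, or 21.7 ± 3.39 TPM. Vps35 (ENSMUSG00000031696.9, chromosome 8, 85260392 to 85299802, minus strand), the retromer gene, had 60.9 and 54.4 TPM from 3982 and 3316 counts, or 57.7 ± 4.64 TPM. Vps35 was therefore present at a higher level per length than Lrrk2 in both animals.

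Pink1 (ENSMUSG00000028756.12, chromosome 4, 138313409 to 138326307, minus strand) encodes the mitochondrial kinase. It had 128 and 119 TPM from 5328 and 4697 counts, or 123 ± 6.10 TPM. Park7 (ENSMUSG00000028964.14, chromosome 4, 150897133 to 150914437, minus strand), the DJ-1 gene, had 85.4 and 81.3 TPM from 1317 and 1177 counts, or 83.3 ± 2.89 TPM. Both genes ranked high among protein-coding genes, with 96.9% and 94.6% of symbols below them.

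In the alignment-based tables the order was Sncb, Pink1, Park7, Vps35, Lrrk2 and Sncg, and no neighbours in it overlapped between the mice. The steps down were 3.10-fold, 1.48-fold, 1.44-fold, 2.65-fold and 11.9-fold. The second quantification, made straight from the reads, gave a different order at 1 place. There Park7 had 179.6 and 176.9 TPM and Pink1 had 179 and 169 TPM, so their ranges overlapped and they cannot be ordered. The read-based levels were higher for all 6 genes, by 1.26-fold for Lrrk2 up to 2.15-fold for Sncb. With each table rescaled to nuclear protein-coding genes, Lrrk2, Pink1 and Vps35 were lower in the read-based table (0.777, 0.868 and 0.922 of the alignment-based level) and Sncb, Park7 and Sncg higher (1.32-fold, 1.31-fold and 1.06-fold).

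**Figure D1:**
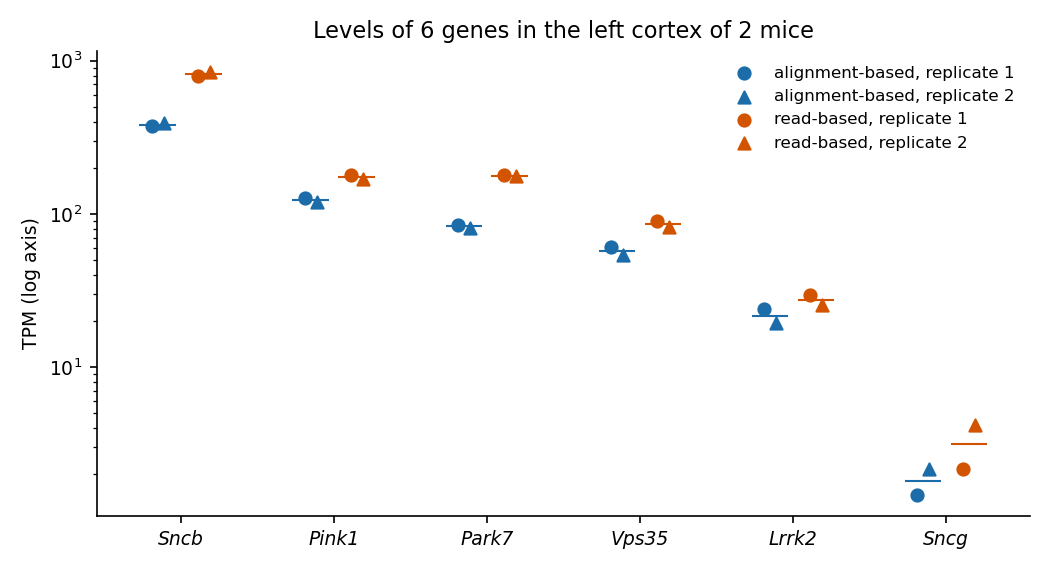
TPM of the 6 genes on a log axis, with circles for replicate 1, triangles for replicate 2 and a line at the mean, in blue (alignment-based) or orange (read-based). Sncb is highest and Sncg lowest in both tables, and Pink1 and Park7 overlap only in the read-based table.

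The mice were then compared with each other. The log2 ratio of replicate 2 over replicate 1, from counts scaled by TMM, was -0.02 for Sncb with an exact binomial 95% counting interval from -0.07 to 0.02. The interval held 0, whereas the read-based estimated counts gave -0.05 with an interval from -0.10 to -0.0007, just below 0. Sncg had a ratio of 0.47 with an interval from -0.36 to 1.35, so its 22 and 30 counts cannot show which animal is higher. Pink1 had -0.15 (-0.20 to -0.09) and Park7 had -0.13 (-0.24 to -0.01).

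Lrrk2 and Vps35 had the largest ratios in size under TMM among the 5 members with over 1000 counts. Lrrk2 had a ratio of -0.28 (-0.36 to -0.21), which is 1.22-fold lower in replicate 2 under TMM. Vps35 had -0.23 (-0.30 to -0.16). These intervals hold counting error only and each mouse is 1 library. The size of the Lrrk2 ratio exceeded that of 95.9% of 1877 genes with a mean count within 1.5-fold of its own, and the Vps35 ratio that of 91.7% of 1508 such genes. The median ratio of those genes was -0.05 and -0.06, both slightly below 0. With counts scaled to the spike-in totals in place of TMM, the median of all genes moved from 0.00 to 0.40 and the signs turned, to 0.12 for Lrrk2, 0.17 for Vps35, 0.25 for Pink1, 0.27 for Park7 and 0.38 for Sncb.

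In all, 2 of the 6 genes passed 1.2-fold between the mice, Sncg higher and Lrrk2 lower in replicate 2, against 25.2% of the 16491 genes that averaged 20 or more counts. With library totals, where the median of all genes was 0.06, only Sncg passed, as the Lrrk2 ratio was then -0.22. With spike-in totals the median of all genes was 0.40, itself past 1.2-fold (0.26 in log2). There 3 members passed, all higher in replicate 2, namely Sncg (0.86), Sncb (0.38) and Park7 (0.27), and Lrrk2 (0.12) did not. The share of all genes past 1.2-fold under either scaling is not given here. Under TMM the share of all genes was lower at higher counts. It was 63.4% of genes with mean counts from 20 to 40, where Sncg lies, and 5.91% of those averaging 1000 or more, where the other 5 lie. None of the 6 genes passed 2-fold, which 1.75% of all genes did. Oligodendrocyte markers were also lower in replicate 2, with 4 of 5 past 1.2-fold, a median log2 ratio of -0.36 and a summed level of 1220 against 1000 TPM. The choroid plexus markers summed to 11.2 against 7.66 TPM, with 2 of 3 tested past 1.2-fold lower. The excitatory neuron markers had a median of -0.18 with 2 of 6 past 1.2-fold lower. Other lists had medians of -0.03 (inhibitory neuron), -0.08 (astrocyte), -0.04 (microglia), 0.004 (endothelial) and -0.13 (erythroid). Among them 1 inhibitory neuron marker was lower and 1 endothelial marker higher past 1.2-fold. The part of any cell type in the Lrrk2 and Vps35 ratios was not tested.

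**Figure D2:**
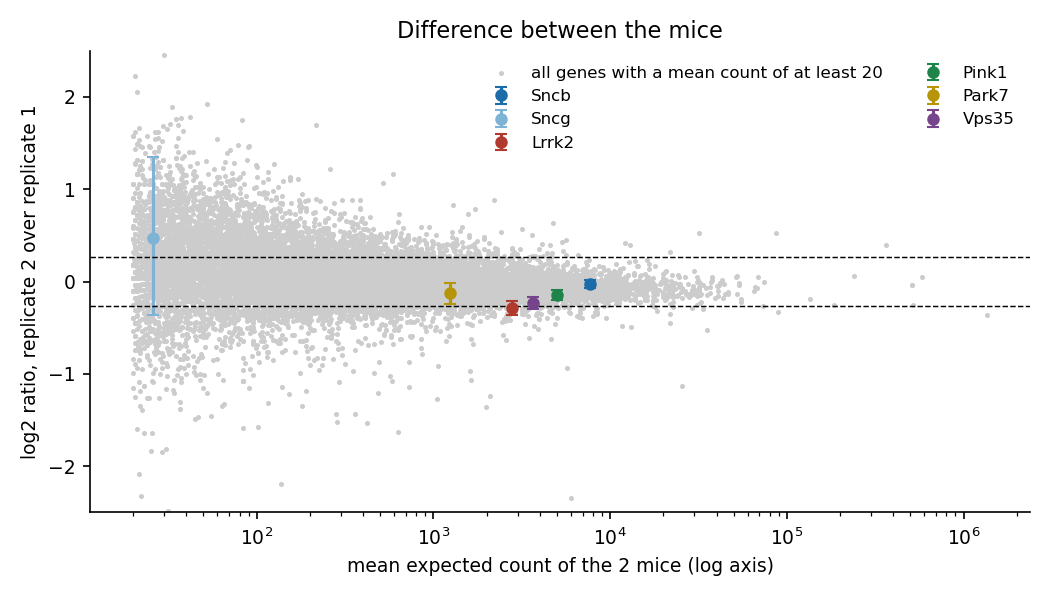
Log2 ratio of replicate 2 over replicate 1 against the mean expected count on a log axis, with each gene in grey, the 6 genes in colour with 95% counting intervals, and dashed lines at 1.2-fold. Sncg lies among the thinly counted genes with a wide interval, Lrrk2 lies just past the lower line under TMM (above 0 under spike-in totals), and 18 genes lie beyond the axis limit of 2.5 either way.

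The annotation holds 29 transcripts of the 6 genes, of which 24 had counts. The leading transcript of each gene was the same in both tables and both mice. The tables differed both in the counts they gave a transcript and in its effective length.

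**Figure D3:**
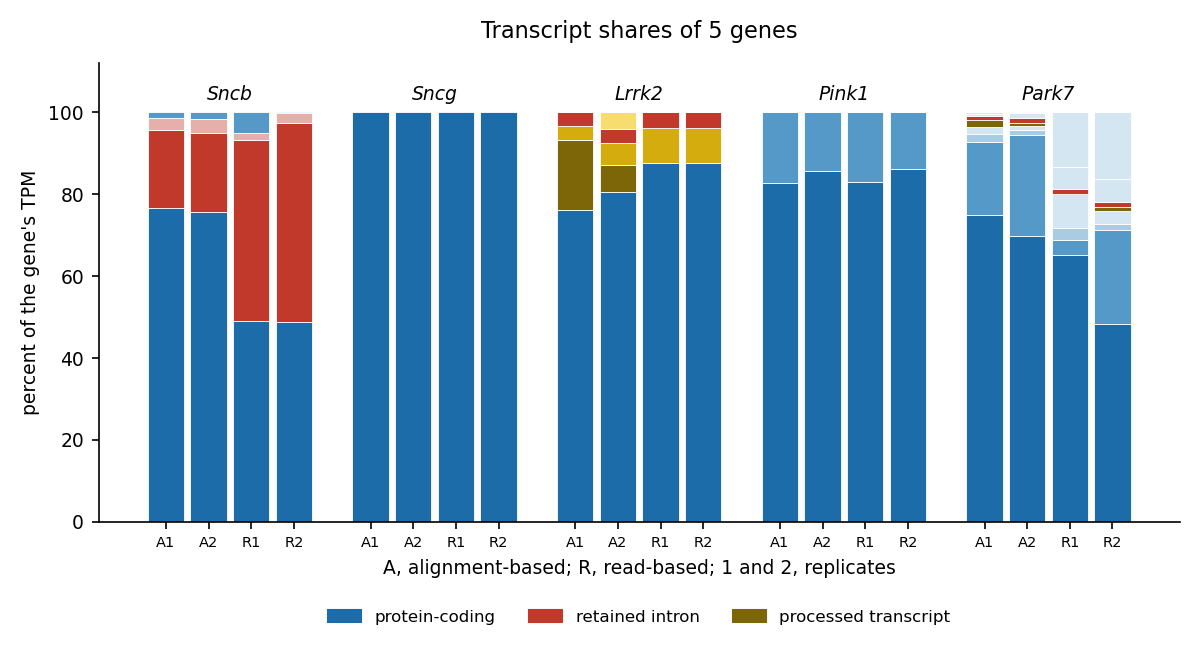
Share of TPM by transcript for 5 of the genes, in percent, by table and replicate, with blue for protein-coding, red for retained-intron and yellow for other processed transcripts. The retained-intron share of Sncb is near 22.3% where reads were aligned and 48.4% in the read-based tables.

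Sncb-201, which encodes the 133-codon protein, held 76.7% and 75.7% of Sncb TPM in the alignment-based table and 49.1% and 48.8% in the read-based table. The rest was mostly Sncb-204, a short retained-intron transcript of 469 bases with no annotated coding sequence. It held 19.0% and 19.4% in the alignment-based table, and 44.1% and 48.7% in the read-based table. As a share of counts, not of TPM, it was 6.65% and 6.81%, and 10.9% and 12.3% in the read-based table. The effective length for Sncb-204 was 370 bases after alignment and 145 bases in the read-based table. A shorter length turns the same counts into a larger TPM, and the counts themselves were also higher in the read-based table (794 and 870, against 522 and 513).

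Sncb-204 differs from Sncb-201 in 107 bases at its 5′ end, which lie in an intron of Sncb-201 just ahead of an exon. The annotation gives no other bases to it alone, so they are shown here from GENCODE M21 at chr13:54762961-54763067, minus strand, with the last 2 bases of the intron in capitals.
Sncb-204 intron part: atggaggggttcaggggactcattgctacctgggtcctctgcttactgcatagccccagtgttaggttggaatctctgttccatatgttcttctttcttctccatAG
The other retained-intron transcript, Sncb-203, held 2.78% and 3.45%, and Sncb-202, which also encodes 133 codons from another start, held 1.46% and 1.52%. In the read-based table Sncb-203 held 1.73% and 2.27%, and Sncb-202 held 5.05% and 0.256%, from 236.4 and 11.97 estimated counts, so there the mice differed.

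Sncg has 1 annotated transcript, of 123 codons, so it has no share to divide. Lrrk2-201 spans 51 exons and encodes all 2527 codons of the kinase. It held 76.3% and 80.5% of Lrrk2 TPM, and 87.6% ± 0.0951 in the read-based table. Lrrk2-205, a 438-base transcript with no coding sequence, held 17.0% and 6.68% in the alignment-based table and 0 in the read-based table. Its alignment-based share came from 27.4 and 8.05 expected counts, which are 0.883% and 0.324% of the gene's counts, and the deposited credibility bounds on its TPM ran from 1.11 to 7.79 and from 0.000831 to 4.45. Only its first exon of 33 bases, at chr15:91772345-91772377 on the plus strand, is absent from the other transcripts.
Lrrk2-205 first exon: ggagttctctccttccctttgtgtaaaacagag
Its lower bound in replicate 2 was close to 0.

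Pink1-201 encodes the full 580-codon kinase and held 82.9% and 85.7% of Pink1 TPM, and 84.6% ± 2.27 in the read-based table. Pink1-202 starts 9881 bases further along the gene and encodes 168 codons. It held 17.1% and 14.3%, and 15.4% ± 2.27 in the read-based table. It has 298 bases of its own.

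Park7-201 encodes the 189-codon DJ-1 protein and held 74.8% and 69.9% in the alignment-based table, and 65.2% and 48.4% in the read-based table. Park7-204 encodes the same 189 codons from a start 4511 bases upstream, with a first exon of 118 bases. It held 17.9% and 24.5% in the alignment-based table, and 3.73% and 23.0% in the read-based table. The share was higher in replicate 2 in both, but the deposited credibility bounds on its TPM, 3.64 to 26.9 and 5.92 to 30.6, overlapped widely. Park7-209, of 84 codons, held 0.50% and 0.19% in the alignment-based table but 13.2% and 16.2% in the read-based table, from 4.07 and 1.35 expected counts against 89.4 and 102 estimated counts. The tables thus differ on its level, although it has 316 bases of its own.

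**Figure D4:**
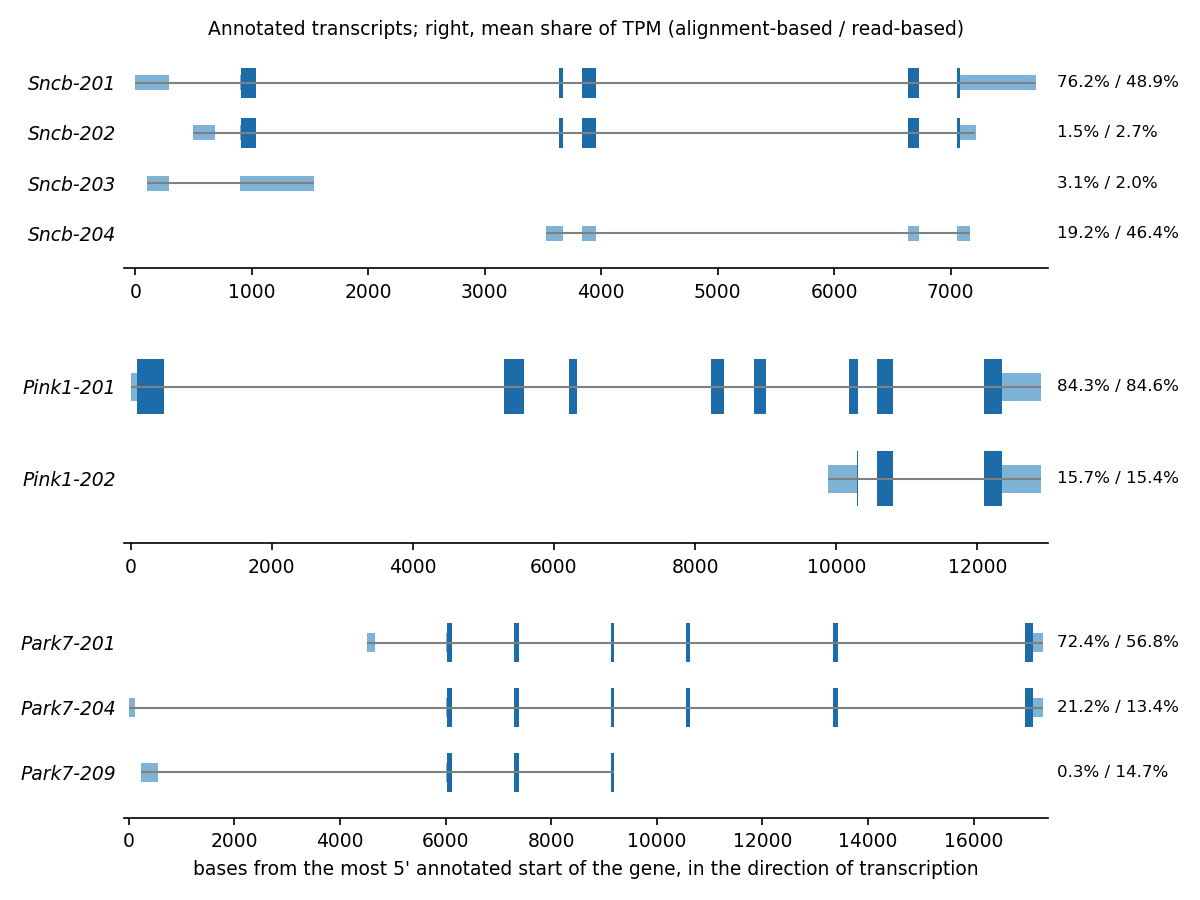
Annotated transcripts of Sncb, Pink1 and Park7 drawn from the most 5′ start in the direction of transcription, in bases, with thick dark blocks for coding and thin light blocks for other exon sequence. The numbers on the right are mean shares of TPM, alignment-based before read-based, which for Sncb-204 are 19.2% and 46.4% and for Park7-209 are 0.345% and 14.7%.

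Some neighbours share sequence with these genes. Vps35 overlaps the start of Orc6, an origin recognition complex gene on the opposite strand, by 171 bases. Orc6 had 13.3 ± 0.141 TPM from 283 and 261 counts, and as the strand setting of the counting is not stated in the labels or headers, reads in those bases could belong to either gene. The microRNA genes Mir7019 and Gm27646 lie within Pink1 exons on the same strand and both had 0 counts. They span 69 and 110 bases. The alignment-based effective length of a transcript was 99 bases below its length, so genes this short could receive few or no counts. Tnfrsf9 starts 124 bases from the upstream start of Park7 on the opposite strand and had 0.13 and 0.26 TPM.

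The start sites of 5 of the 6 genes could be matched to RefSeq promoters of 300 bases on GRCm38.p6. The dinucleotide CG, the target of DNA methylation in mammals, occurred 28 times in the Lrrk2 promoter, 22 in Park7, 18 in Pink1, 15 in Sncb and 9 in Sncg, against a median of 7 in 32851 promoters. Among these 5 genes the CG counts were not in the order of the levels, as Lrrk2 had the most CG and the lowest level but for Sncg. Methylation was not measured, and a relation of CG to level was not tested.

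The genes were next set beside the other genes of their pathways, in lists from textbook knowledge. The counts of listed genes past 1.2-fold stand beside 25.2% of all genes averaging 20 or more counts and 5.91% of those averaging 1000 or more. Of 10 synaptic vesicle genes all were above 1 TPM, with a median of 397 ± 3.82 TPM, and Sncb at 383 lay in their range. The list ran from Snap25 (1277 and 1223 TPM), a fusion protein, and Syp (843 and 784) to Sv2a (189 and 176) and Stx1a (159 and 150). In the read-based table Sncb, at 821 TPM, was above the list median of 586 ± 6.56 TPM but still in its range. Between the mice the list had a median log2 ratio of -0.11, with 0 of 10 past 1.2-fold either way, beside 0.00 for all 16491 genes. That 0.00 is not matched by count. Genes within 1.5-fold of a member's mean count had medians from -0.07 (near Sncb) to -0.04 (near Park7) for members with over 1000 counts. Near Sncg the median was 0.23.

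Vps35 lay above the median of retromer and its partners, 32.9 ± 0.841 TPM over 18 of 18 genes above 1 TPM. Their median log2 ratio was -0.11, with 1 higher and 1 lower past 1.2-fold. The highest were Rab7 (143 and 143 TPM), a late endosome GTPase, and Sorl1 (102 and 90.5), a sorting receptor that retromer carries. Washc4 (11.3 and 11.1) and Washc3 (10.02 and 12.26), of the actin-organizing WASH complex, were lowest. Comparisons within the retromer core were chosen after the values were seen. Vps35 was 2.80-fold and 2.69-fold above Vps26a, 1.37-fold and 1.30-fold above Vps26b, and below Vps29, which was 1.27-fold and 1.55-fold higher.

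Lrrk2 lay below the median of its kinase pathway, 33.3 ± 0.880 TPM over 14 of 14 genes. That list had a median log2 ratio of -0.13 with 0 higher and 1 lower past 1.2-fold. Ywhaz (571 and 551 TPM), a 14-3-3 protein, and Rab10 (64.8 and 59.3), a substrate of the kinase, were highest. Rab29 (3.84 and 3.14), a GTPase that recruits LRRK2 to membranes, and Lrrk1 (2.00 and 2.55), its related kinase, were lowest. Lrrk2 exceeded Lrrk1 by 12.1-fold and 7.58-fold in the comparisons chosen after the values were seen.

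Pink1 at 123 TPM was above the median of 43.5 ± 2.07 for 20 mitophagy genes, all of them above 1 TPM. Their median log2 ratio was -0.11 and 0 of 20 passed 1.2-fold. Sqstm1 (198 and 203 TPM) and Bnip3l (81.1 and 86.8), both autophagy receptors, were highest. Usp30 (14.98 and 16.98), a deubiquitinase that opposes mitophagy, and the receptor Optn (8.15 and 8.15) were lowest.

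Park7 at 83.3 TPM was above the median of 41.2 ± 1.73 for 20 antioxidant genes, again all above 1 TPM. Their median log2 ratio was -0.07, with 0 higher and 1 lower past 1.2-fold. Gpx4 (215 and 206 TPM) and Sod1 (167 and 177), which remove peroxides and superoxide, were highest. The inducible enzymes Hmox1 (2.28 and 2.24) and Nqo1 (2.20 and 2.24) were lowest and lay beside Sncg in level.

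Other parkinsonism genes above 1 TPM numbered 15 of 16, with a median of 32.9 ± 0.583 TPM and a median log2 ratio of -0.01, and 1 was lower past 1.2-fold. In the alignment-based table Uchl1 (383.3 and 392.4 TPM), a neuronal ubiquitin hydrolase, stood at the level of Sncb. Chchd2 (192 and 179), a mitochondrial protein, followed. In the read-based table Uchl1 had 584 and 587 TPM, below Sncb at 798 and 845 TPM. Lrp10 (9.23 and 10.8) and Gch1 (0.89 and 0.66), the enzyme that starts tetrahydrobiopterin synthesis, were lowest in the alignment-based table.

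The cell bodies of midbrain dopamine neurons, which die in Parkinson's disease, are not in the cortex. Of 10 markers of these cells 2 were above 1 TPM in both mice in the alignment-based table, and the median was 0.0775 ± 0.0106 TPM. Th had 0.79 and 1.18 TPM there, and 2.02 and 2.19 TPM in the read-based table. Foxa1 and Foxa2, factors of dopamine neuron identity, had 0 counts and are among 3 markers at 0. Aldh1a1 (23.5 and 22.2 TPM) and Ddc (2.95 and 2.38), which other cell types also express, were highest. Of 3 markers with enough counts 1, Th, was higher past 1.2-fold in replicate 2, from 26 and 34 counts. All 6 genes lay above that median, a low mark that any gene at 1 TPM would pass. Aldh1a1 (mean 22.8 TPM) lay at the level of Lrrk2 (mean 21.7 TPM).

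Sncg also names a class of cortical interneurons that express Cck. Of 7 markers of that and related interneuron classes all were above 1 TPM, with a median of 25.3 ± 0.212 TPM, and Sncg itself was below each of them. The highest were Cck (325 and 299 TPM), a neuropeptide that other cortical neurons also make, and Lamp5 (125 and 108), and the lowest were Calb2 (7.67 and 11.9) and Htr3a (3.17 and 3.27). Cck exceeded Sncg by 219-fold and 138-fold. Between the mice 2 of the 7 were higher and 1 lower past 1.2-fold, with a median log2 ratio of -0.08. Over all lists, 4 of 108 genes with enough counts were higher and 5 lower. The share of all genes past 1.2-fold in either direction was 25.2% at a mean count of 20 or more. It was 14.8% at 100 or more and 5.91% at 1000 or more. The listed genes were not matched to all genes by count.

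**Figure D5:**
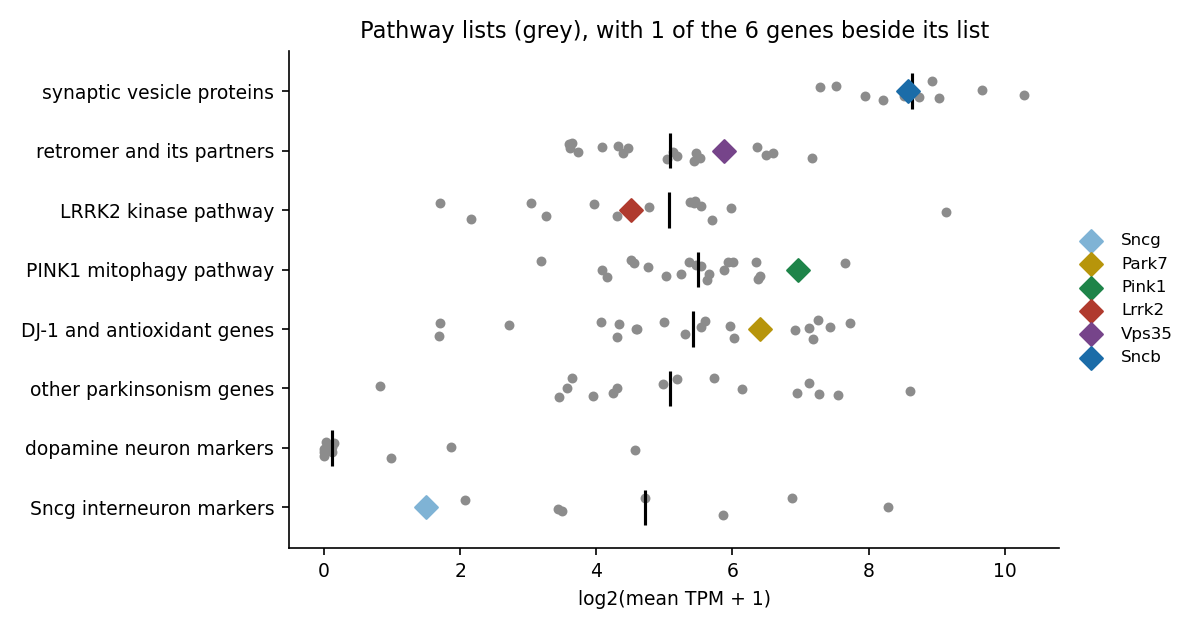
Mean alignment-based level of each listed gene as log2(TPM + 1), by list, with a black line at the list median and a diamond for the gene of the 6 that belongs beside it. Pink1, Park7 and Vps35 lie right of their list medians, Lrrk2 and Sncg left, and Sncb close to its own.

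The gene of these lists nearest in level to each of the 6 was found over 115 genes and 2 samples. The measure was the mean absolute difference of log2(TPM + 1) in the alignment-based table. Read-based levels were not searched, so these matches stand for that table alone. Sncb was nearest to Uchl1 (0.02) and Rab3a (0.06), a vesicle GTPase. Sncg was nearest to Nqo1 (0.20) and Hmox1 (0.22). Lrrk2 was nearest to Vps26a (0.10) and Txnrd1 (0.11), Pink1 to Sod2 (0.05) and Lamp5 (0.09), Park7 to Tomm20 (0.03) and Mfn2 (0.05), and Vps35 to Tax1bp1 (0.03) and Cnr1 (0.03).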

How the data were processed

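RNA from 2 cortices was sequenced in 1 library each. Per the deposited listing, the authors quantified genes and transcripts on mm10 with GENCODE M21. Which tools made the tables is not given in the sources used here. Per the file headers, the tables made after alignment give deposited expected counts, deposited TPM, and for each transcript its percent of the gene's TPM. Tables made directly from reads give deposited TPM with estimated counts. All 55536 gene rows matched the annotation.

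The 6 genes and the lists were chosen with earlier results of these data known. Besides the 6, the genes named are the 2 highest and 2 lowest by mean TPM of each list, the 2 nearest in level to each of the 6, transcripts with a mean share of at least 10 percent in either table, and overlapping genes. Sncb-202, Sncb-203, Tnfrsf9, Th and the core retromer, Lrrk1 and Cck comparisons were chosen after their values were seen. Ratios between the mice used expected counts, rounded to whole numbers for scaling, TMM from edgeR 4.0.16 (R 4.3.3; 17529 genes kept) and a prior count of 0.5, with exact binomial intervals at 95%. DESeq2 1.42.0 gave alternative size factors. No model was tested, since there is 1 group. Other steps used Biopython 1.88, matplotlib 3.10.9, scipy 1.17.1, numpy 2.4.6 and pandas 2.3.3 under Python 3.11.15. The script for the ratios was tested on simulated data. Depth was 29915463 and 27988085 counts. Alternatives were other scalings, pseudocounts, filters and the read-based tables. Protein sequences and the Vps35 promoter were not analysed here. The transcript shares of Vps35 are not reported here.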

Additional observations from a re-analysis of the deposited data

How the results depend on the processing

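All 6 genes had at least 1 TPM in both mice in both tables. The difference of Sncb and Sncg in log2(TPM + 1), 7.10, was 7.66 with a pseudocount of 0.1, 7.41 after rescaling to nuclear protein-coding genes, 7.67 in the read-based tables and 7.77 in read-based tables rescaled the same way, an alternative chosen after seeing the data. It ranged from 6.94 to 7.25 with either replicate left out. The 2 genes past 1.2-fold between the mice fell to 1 with library totals and to 1 with a mean count of at least 100, which drops Sncg. At that mean count 14.8% of 12530 genes passed, against 25.2% of 16491 at 20 or more. With spike-in totals 3 of the 6 genes passed, namely Sncg, Sncb and Park7, without Lrrk2. The median of all genes was then 0.40, itself past 1.2-fold. The Lrrk2 ratio of -0.28 became 0.12 with spike-in totals, which was still below the 0.40 median of all genes. The cause of the shift between the scalings was not tested. Levels of all 6 genes and 8 of 11 transcript shares moved by more than the spread of the mice in the read-based tables. The alignment-based levels of all 6 genes also moved by more than that spread after rescaling to nuclear protein-coding genes. Each mean rose 2.21-fold, to 846 TPM for Sncb and 4.03 TPM for Sncg. The TPM values given here therefore depend on which genes share the total. All 6 genes had at least 1 TPM in both mice under that scaling too. No paired analysis was possible because both samples are in 1 group. A replicate cannot be left out of the ratio between the mice. Depth limits Sncg, with 22 and 30 counts.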
